A study of Mus musculus with 8 samples.

Results

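Glutathione synthesis and NRF2 response genes were followed in whole mouse liver. The set holds 9 genes, namely the glutathione genes Gclc, Gclm, Gss and Gsr, the regulators Nfe2l2 and Keap1, and the NRF2 target genes Nqo1, Txnrd1 and Srxn1. They were taken by gene name from a table of 24545 rows, as a set put together with earlier results of these data known, and all 9 were measured in all 8 libraries. The livers came from male C57Bl/6J mice in 4 groups of 2 libraries each: ApoE-Cyp7a1 transgenic mice given LPS, untreated transgenic mice, wild-type mice given LPS, and untreated wild-type mice. The dose of LPS, an endotoxin of Gram-negative bacteria, was 1.5 mg/kg per daily injection, for 7 days. The transgene is described as liver-specific and carries Cyp7a1, whose product limits the rate at which bile acids are made from cholesterol. The sources used here do not give the species of the transgene, the age of the mice, whether untreated mice were injected, or the time between the last injection and collection. Cyp7a1 itself was at 64.7 to 78.5 FPKM in the 4 transgenic libraries and 19.9 to 49.1 FPKM in the 4 wild-type libraries. FPKM is a fragment density corrected for transcript length and for the number of mapped fragments, so levels of different genes can be set beside each other.

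Glutathione, the main small thiol of the cell, is built by glutamate-cysteine ligase, which joins glutamate to cysteine, and by glutathione synthetase, which adds glycine. Liver makes glutathione both for its own conjugation and peroxide-removing reactions and for export to blood and bile. The transcription factor NRF2, the product of Nfe2l2, is held low by KEAP1, an adaptor that feeds it to a ubiquitin ligase. Electrophiles and oxidants act on cysteines of KEAP1 and spare NRF2, which then binds antioxidant response elements (AREs) together with small MAF proteins.

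The promoter sequences of the genes whose transcripts fell with LPS, and of Nfe2l2 as their regulator, are shown because the ARE is the sequence through which NRF2 acts. RefSeq windows on GRCm38.p6, the assembly also called mm10, were matched for 7 of the 9 genes, with 3 windows for Txnrd1. Gclc and Gsr had no window. Each run below gives the 250 bases before a transcription start, 5′ to 3′ along the gene. Capitals mark matches to the ARE core TGACNNNGC or to the AP-1 motif TGANTCA, searched on both strands. The runs are chr3:122245307-122245556 (plus strand) for Gclm, chr10:82858956-82859205 (plus strand) for Txnrd1, chr2:152105274-152105523 (plus strand) for Srxn1, chr8:107403206-107403455 (minus strand) for Nqo1 and chr2:75704664-75704913 (minus strand) for Nfe2l2.
Gclm: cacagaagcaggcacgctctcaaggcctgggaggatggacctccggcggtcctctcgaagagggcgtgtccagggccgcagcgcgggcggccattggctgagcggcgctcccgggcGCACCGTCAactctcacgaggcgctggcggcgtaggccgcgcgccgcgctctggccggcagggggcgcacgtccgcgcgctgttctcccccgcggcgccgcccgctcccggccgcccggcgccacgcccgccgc
Txnrd1: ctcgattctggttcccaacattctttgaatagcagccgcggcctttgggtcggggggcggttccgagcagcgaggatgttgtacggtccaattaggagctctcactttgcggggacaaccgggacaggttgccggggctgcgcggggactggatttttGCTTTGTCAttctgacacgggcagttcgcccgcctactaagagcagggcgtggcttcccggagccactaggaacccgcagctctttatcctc
Srxn1: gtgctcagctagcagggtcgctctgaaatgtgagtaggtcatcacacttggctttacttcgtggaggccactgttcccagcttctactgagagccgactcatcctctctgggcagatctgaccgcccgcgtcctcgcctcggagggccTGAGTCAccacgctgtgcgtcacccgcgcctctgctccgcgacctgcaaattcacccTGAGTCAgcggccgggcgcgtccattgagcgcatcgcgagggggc
Nqo1: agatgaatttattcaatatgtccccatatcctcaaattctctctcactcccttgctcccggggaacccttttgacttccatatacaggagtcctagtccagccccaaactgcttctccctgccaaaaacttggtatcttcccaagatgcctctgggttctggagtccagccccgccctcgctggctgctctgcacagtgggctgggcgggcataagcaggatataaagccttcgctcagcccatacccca
Nfe2l2: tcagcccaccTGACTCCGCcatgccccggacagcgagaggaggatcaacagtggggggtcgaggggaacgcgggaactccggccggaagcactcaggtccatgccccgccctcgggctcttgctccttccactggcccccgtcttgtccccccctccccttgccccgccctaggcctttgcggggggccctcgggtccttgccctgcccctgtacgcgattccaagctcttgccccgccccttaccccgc
The ARE core was found in 4 of the 9 windows, which belong to 4 genes. Its first base stood at -134 from the start in Gclm, at -92 in this start of Txnrd1 and at -240 in Nfe2l2. In Srxn1 it lay at 28 bases past the start, outside the printed run. The Gclm, Txnrd1 and Srxn1 matches run on the opposite strand to the gene and read GCACCGTCA, GCTTTGTCA and GCTAGGTCA. Over 32851 windows of the same length, which hold 250 bases before and 50 after a start, 12.4% had the core. The AP-1 motif, whose letters are the same on both strands, stood at -102 and -45 in Srxn1 and was present in 7.81% of all windows. With the motifs spelled this way, no match to one overlapped a match to the other. The AP-1 match at -45 in Srxn1 is followed by gc and so reads TGAGTCAGC. This differs from the ARE core searched only by a G in place of its fixed C after TGA. Wider spellings of the core were not searched. A match of letters is no evidence of binding. The windows of Nqo1, Gss and Keap1 and the other windows of Txnrd1 had no match, and were read over this length only.

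In GENCODE vM21, also on GRCm38, the glutathione genes are protein-coding genes at chr9:77754535-77794485 on the plus strand (Gclc), chr3:122245557-122270732 on the plus strand (Gclm), chr2:155563181-155592810 on the minus strand (Gss) and chr8:33652523-33698163 on the plus strand (Gsr). Nfe2l2 lies at chr2:75675513-75704641 and Keap1 at chr9:21229730-21239361, both on the minus strand. The targets lie at chr10:82833951-82897712 on the plus strand (Txnrd1), chr8:107388225-107403206 on the minus strand (Nqo1) and chr2:152105516-152111376 on the plus strand (Srxn1). The expression values cover whole transcripts and do not separate the starts of Txnrd1.

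The libraries differed beyond these genes. FPKM values summed to 406668 to 469644 in the 4 LPS libraries and 500765 to 580051 in the 4 untreated libraries, and the number of reads behind them is unknown. Most macrophage, stellate and matrix, endothelial and erythroid markers were higher with LPS. A marker at low level in untreated liver could enter the test, which asks for at least 1 FPKM in 2 libraries, only through its LPS libraries. Such a filter favours a rise. Of the markers that reached this level in the untreated libraries alone, 10 of 11 macrophage, 10 of 11 stellate and matrix, 9 of 10 endothelial and 3 of 4 erythroid markers rose in the averaged LPS comparison. The other lists had few such markers: 7 of 9 neutrophil, 7 of 9 B and plasma cell and 2 of 3 T and NK cell markers tested passed only through LPS libraries, so their counts of rises are not given, and 6 of the 9 T and NK cell markers with a value were not tested. Summed macrophage markers were at 1579 to 1785 FPKM with LPS and 132.6 to 270.1 FPKM untreated, and neutrophil markers at 186.7 to 366.2 FPKM with LPS and 4.63 to 9.42 FPKM untreated. Of 13 hepatocyte markers 1 rose and 3 fell, with summed levels of 24800 to 28180 FPKM with LPS and 22890 to 35830 FPKM untreated. Over all features tested, 20.6% rose and 15.8% fell in the averaged LPS comparison. The median log2 change of the hepatocyte markers with LPS was 0.31 in transgenic and -0.61 in wild-type livers. For 0 of the 13 was the difference between these changes called. Ttr and Apoa1 reached 3713 and 14330 FPKM, whereas Alb was listed at 0 in every library and was not read as absent. Pancreas markers summed to 110.3 and 2.38 FPKM in transgenic LPS livers, 4588 and 931.9 FPKM in untreated transgenic livers, 156.7 and 46.3 FPKM in wild-type LPS livers, and 1213 and 64.7 FPKM in untreated wild-type livers. In bulk liver, fewer cells of a type and less RNA per cell cannot be told apart, which holds for every level below.

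At baseline the ligase subunits had the highest mean levels of the set. Gclc and Gclm averaged 77.6 ± 6.34 and 70.4 ± 8.37 FPKM in untreated transgenic livers, and 56.3 ± 10.5 and 60.8 ± 14.2 FPKM in untreated wild-type livers (SD, n = 2 per group). Their libraries overlapped in both groups, so no order between them was resolved, and in untreated wild-type livers those of Gclc also overlapped those of Txnrd1. Txnrd1, at 45.4 FPKM in untreated transgenic and 46.6 FPKM in untreated wild-type livers, and Gsr, at 42.4 FPKM in the transgenic and 44.8 FPKM in the wild-type ones, came next, and their libraries overlapped in wild type and nearly met in transgenic mice. Nfe2l2 and Gss followed at 26.7 to 28.8 FPKM and overlapped in both. Srxn1 overlapped with Nfe2l2 and Gss in untreated transgenic livers (24.0 FPKM) but not in untreated wild-type livers (21.8 FPKM). Keap1 lay at 17.5 FPKM in untreated transgenic and 16.4 FPKM in untreated wild-type livers. Nqo1, a quinone reductase, was the lowest, at 5.64 FPKM in untreated transgenic and 6.14 FPKM in untreated wild-type livers. With LPS Gclc no longer stood at the top in transgenic livers: at 18.2 FPKM it was the sixth of the 9, below Gclm (40.2), Gsr (37.7), Txnrd1 (32.6), Nfe2l2 (30.5) and Gss (18.8), although its libraries overlapped those of Gss, Srxn1 and Keap1, so that this place was not resolved from theirs.

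**Figure D1:**
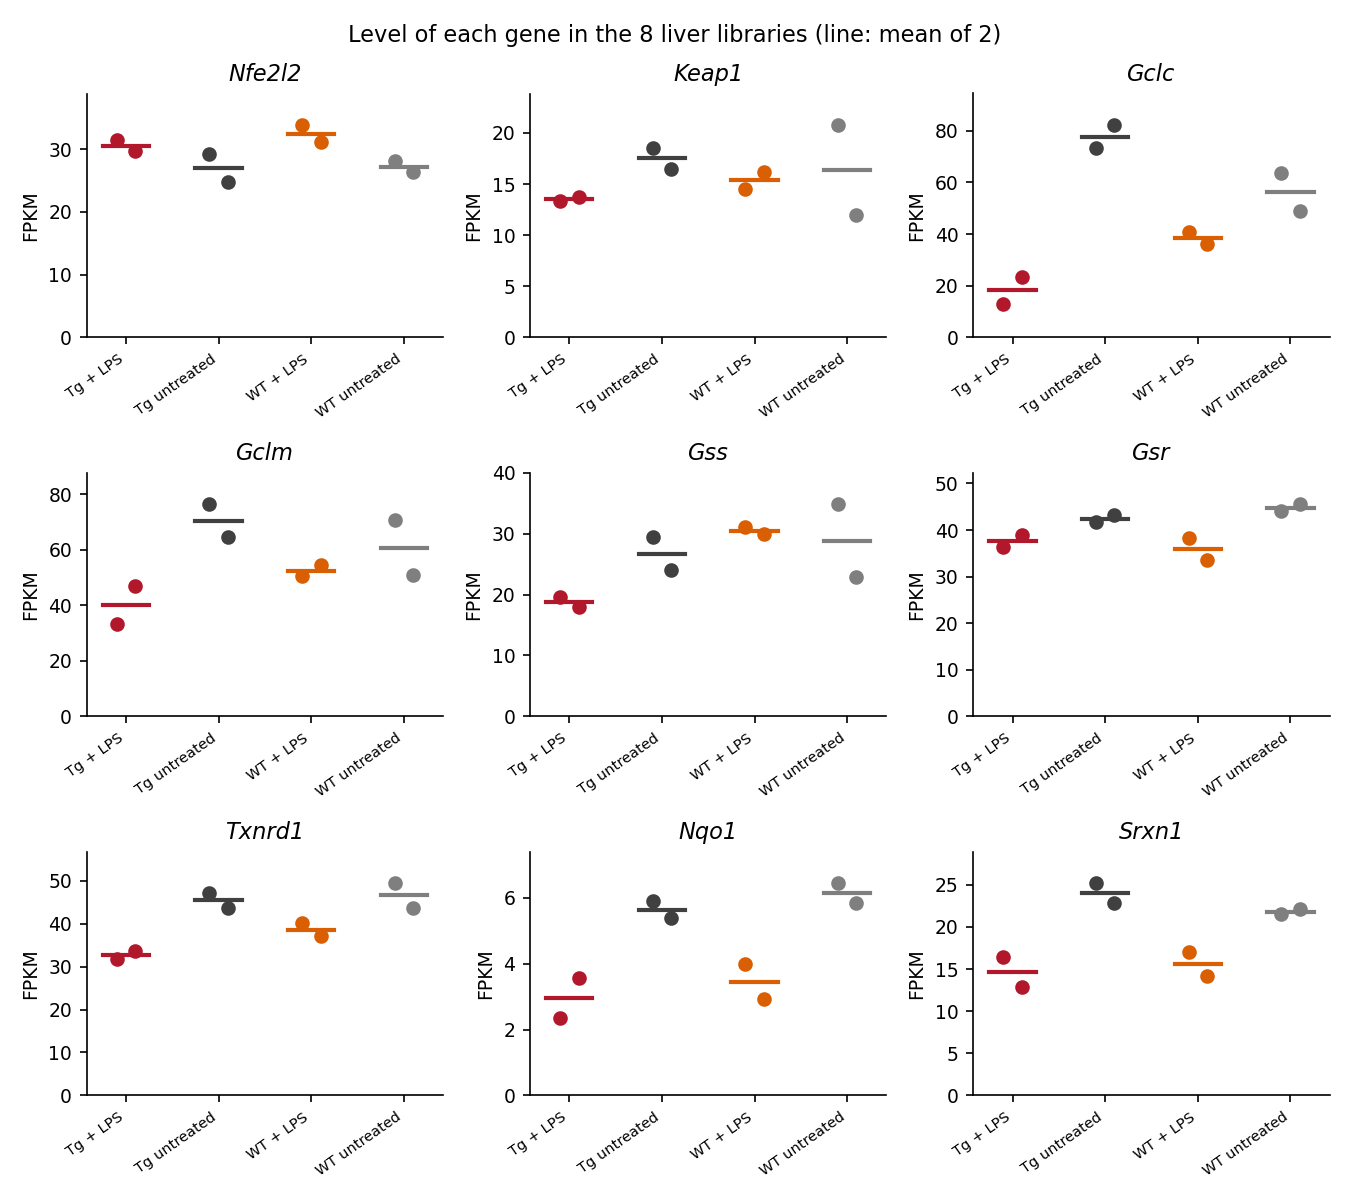
FPKM of each of the 9 genes in every library (y axis, from 0), by group (x axis), with points for the 2 libraries and a line for their mean. The Gclc points of transgenic LPS livers, at 13.1 and 23.2 FPKM, lie below all other Gclc points.

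The first question was what repeated LPS did to these genes in transgenic liver. Of the 9 transcripts 5 fell, namely both ligase subunits and the targets Nqo1, Txnrd1 and Srxn1, and 0 rose, where 10.5% of all 11463 features tested fell. Changes are on the scale of log2(FPKM + 1) and were tested with limma across all features, with Benjamini-Hochberg adjustment and a threshold of 0.05. With so few libraries per group, a pair of groups can separate by chance. The share of all features that separate between such a pair is not given here. A lack of overlap between a pair of groups is therefore a description only. The median change was -0.48 over the 9 genes and -0.04 over all features. All 9 pancreas markers fell in the same comparison, and their part in these results was not tested.

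Gclc, the catalytic subunit of glutamate-cysteine ligase, was at 13.1 and 23.2 FPKM in transgenic LPS livers, against 73.1 and 82.1 FPKM in untreated transgenic livers. The groups were far apart, with the higher LPS library well under the lower untreated library. The change was -2.08 (SE 0.26, adjusted p = 0.00143), a fold of 0.236, and it passed in each of the 8 refits without 1 library, between -2.47 and -1.70. It also passed, at -2.17, without both untreated libraries numbered 1. That refit leaves 1 untreated transgenic library, whose pancreas markers still summed to 931.9 FPKM. Where a refit leaves a group with 1 library, the spread comes from the other groups, and the lone library is assumed to vary like them.

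Gclm, the modifier subunit that raises the catalytic efficiency of the ligase, was at 33.3 and 47.1 FPKM in transgenic LPS livers, against 76.3 and 64.5 FPKM in untreated transgenic livers. The groups did not overlap. The change was -0.81 (SE 0.23, adjusted p = 0.036). Its call ended without either wild-type LPS library (adjusted p = 0.0712 and 0.0714), without untreated transgenic replicate 1 (0.181) or 2 (0.0982), and without transgenic LPS replicate 1 (0.171).

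Gss, glutathione synthetase, was at 19.7 and 17.9 FPKM in transgenic LPS livers, against 29.4 and 24.0 FPKM in untreated transgenic livers. The groups did not overlap, but the change of -0.48 (SE 0.21) missed the threshold (adjusted p = 0.134). Without untreated wild-type replicate 1 or 2, which enter through the shared estimate of spread, it passed (adjusted p = 0.0412 and 0.0418). Gsr, glutathione reductase, which regenerates reduced glutathione with NADPH, was at 36.3 and 39.0 FPKM with LPS, against 41.7 and 43.2 FPKM untreated, a change of -0.17 (adjusted p = 0.407). Of the glutathione genes only the 2 ligase subunits therefore passed in transgenic liver.

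Among the targets, Srxn1, sulfiredoxin, which repairs over-oxidized peroxiredoxins, was at 16.4 and 12.9 FPKM in transgenic LPS livers, against 25.2 and 22.8 FPKM in untreated transgenic livers. Nqo1 was at 2.35 and 3.57 FPKM with LPS, against 5.90 and 5.38 FPKM untreated. Txnrd1, cytosolic thioredoxin reductase, was at 31.7 and 33.6 FPKM with LPS, against 47.2 and 43.6 FPKM untreated. In none of the 3 did the groups overlap, which is a description only. The changes were -0.68 (SE 0.17, adjusted p = 0.0213) for Srxn1, -0.76 (SE 0.19, adjusted p = 0.0244) for Nqo1 and -0.46 (SE 0.14, adjusted p = 0.0481) for Txnrd1. The Srxn1 call ended without untreated transgenic replicate 1 or 2 (adjusted p = 0.129 and 0.083) or transgenic LPS replicate 2 (0.0654). The Nqo1 call ended without untreated transgenic replicate 1 or 2 (0.123 and 0.0905) or transgenic LPS replicate 1 (0.129). The Txnrd1 call ended without any one library of transgenic LPS, untreated transgenic or wild-type LPS livers, at adjusted p = 0.0606 to 0.24. Without both untreated libraries numbered 1 the calls of Gclm, Txnrd1, Nqo1 and Srxn1 ended, with changes of -0.69, -0.41, -0.70 and -0.61.

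The regulators did not pass in transgenic liver. Nfe2l2 was at 31.4 and 29.6 FPKM with LPS, against 29.2 and 24.8 FPKM untreated (0.17, adjusted p = 0.408). Keap1 was at 13.4 and 13.8 FPKM with LPS, against 18.6 and 16.5 FPKM untreated (-0.34, adjusted p = 0.31).

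The second question was the same LPS course in wild-type liver. Here 1 of the 9 transcripts fell, Nqo1, and 0 rose, where 5.41% of all features tested fell. Nqo1 was at 3.98 and 2.94 FPKM in wild-type LPS livers, against 6.44 and 5.84 FPKM in untreated wild-type livers, with no overlap. The change was -0.69 (SE 0.19, adjusted p = 0.0393). That call ended without either untreated wild-type library (adjusted p = 0.0894 and 0.0833), either wild-type LPS library (0.0738 and 0.25) or either untreated transgenic library (0.0674 and 0.0677), the last of which enter through the shared estimate of spread.

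The other 8 genes did not pass in wild type. Gclc was at 40.8 and 36.1 FPKM in wild-type LPS livers, against 63.7 and 48.8 FPKM in untreated wild-type livers, a change of -0.53 (SE 0.26, adjusted p = 0.194) that ran from -0.34 without untreated replicate 1 to -0.71 without untreated replicate 2. Srxn1 was at 17.0 and 14.2 FPKM with LPS, against 21.5 and 22.1 FPKM untreated (-0.47, SE 0.17, adjusted p = 0.0854). Gclc and Srxn1 showed no overlap between the groups, and both LPS values lay on the low side. Gsr was at 38.3 and 33.7 FPKM with LPS, against 44.1 and 45.5 FPKM untreated (-0.31, adjusted p = 0.152). Txnrd1 was at 40.1 and 37.1 FPKM with LPS, against 49.4 and 43.7 FPKM untreated (-0.26, adjusted p = 0.227). Both were likewise without overlap. For Gclc, Srxn1, Gsr and Txnrd1 this separation is not read as a fall, since each missed the threshold.

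For Gclm, Gss and Keap1 the untreated wild-type libraries were far apart and enclosed or met the LPS values. Gclm was at 50.4 and 54.4 FPKM in wild-type LPS livers, against 70.8 and 50.7 FPKM in untreated wild-type livers (-0.19, adjusted p = 0.582). Gss was at 31.0 and 29.9 FPKM with LPS, against 34.8 and 22.9 FPKM untreated (0.11, adjusted p = 0.75). Keap1 was at 14.6 and 16.2 FPKM with LPS, against 20.7 and 12.0 FPKM untreated (-0.04, adjusted p = 0.915). In each of the 3 untreated replicate 1 was the high library, which also held the higher pancreas markers. Nfe2l2 was at 33.8 and 31.2 FPKM with LPS, against 28.1 and 26.4 FPKM untreated, and both LPS libraries were above both untreated ones (0.24, adjusted p = 0.263). The median change in wild type was -0.26 over the 9 genes and -0.05 over all features.

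**Figure D2:**
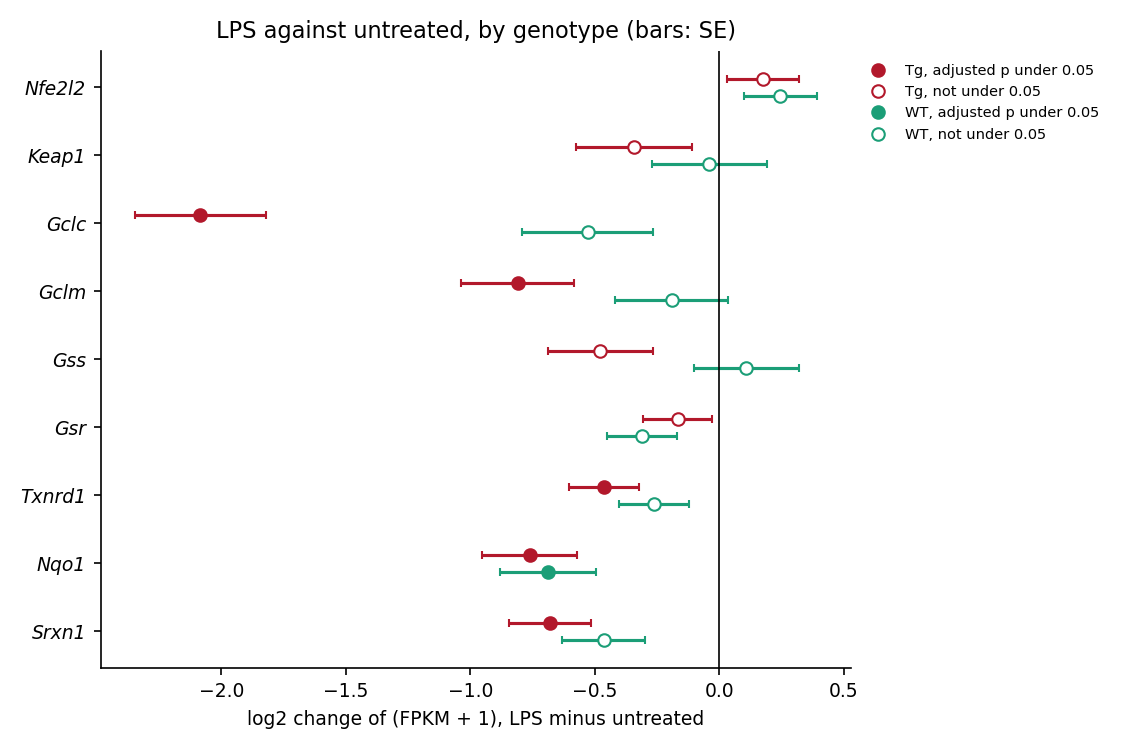
Change with LPS of each gene (x axis, log2 of FPKM + 1, LPS minus untreated) in transgenic (upper points) and wild-type liver (lower points), with bars for the SE and filled points for adjusted p under 0.05. Gclc in transgenic liver lies farthest from 0, at -2.08, against -0.53 in wild type.

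Averaged over both genotypes, which uses the same libraries again, 5 of the 9 genes fell and 0 rose, against 15.8% of all features that fell and 20.6% that rose. These were Gclc by 1.31 on the log2 scale (SE 0.19, adjusted p = 0.00129), Nqo1 by 0.73 (SE 0.14, adjusted p = 0.0048), Srxn1 by 0.57 (SE 0.12, adjusted p = 0.00713), Gclm by 0.50 (SE 0.16, adjusted p = 0.0439) and Txnrd1 by 0.36 (SE 0.10, adjusted p = 0.0258). Gclc, Nqo1 and Srxn1 passed in all 8 refits without 1 library, and also without both untreated libraries numbered 1. The Gclm call ended without untreated wild-type replicate 1, either wild-type LPS library, either untreated transgenic library or transgenic LPS replicate 1, at adjusted p = 0.0774 to 0.14. The Txnrd1 call ended without either wild-type LPS library, either untreated transgenic library or transgenic LPS replicate 1, at adjusted p = 0.0503 to 0.122. The median was -0.36 over the 9 genes and -0.06 over all features.

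Counted by library, 5 of the 9 genes (Gclc, Gsr, Txnrd1, Nqo1 and Srxn1) had all 4 LPS libraries below all 4 untreated libraries, as 16.8% of all features did. Nfe2l2, the gene of the transcription factor itself, was the 1 member with all 4 LPS libraries above all 4 untreated libraries, as 20.6% of all features were. Its averaged change of 0.21 (SE 0.10) had an adjusted p = 0.146. With quantile normalization it was 0.34 and passed (adjusted p = 0.0289), while Gclm and Txnrd1 did not pass (-0.29 and -0.18, adjusted p = 0.129 and 0.136). Gsr, at -0.24 (adjusted p = 0.0934), Keap1, at -0.19, and Gss, at -0.19, did not pass. Without untreated wild-type replicate 2 Keap1 changed by -0.38 and passed (adjusted p = 0.0243), whereas without untreated wild-type replicate 1 it stood at -0.007. Gss likewise stood at -0.33 without untreated wild-type replicate 2 and at -0.04 without replicate 1, and passed in neither.

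The ratio between the transcripts of the ligase subunits was described and not tested. It uses the same Gclc and Gclm values as above. The share of other gene pairs that separate by LPS was not counted. The ratio of Gclc to Gclm FPKM was 0.394 and 0.493 in transgenic LPS livers, against 0.958 and 1.27 in untreated transgenic livers. In wild type it was 0.809 and 0.664 with LPS, against 0.900 and 0.963 untreated. All 4 LPS libraries thus had a lower ratio than all 4 untreated libraries, and the transgenic LPS libraries had the lowest of the 8. Group means were 0.444 ± 0.0703 in transgenic LPS livers and 1.11 ± 0.223 in untreated transgenic livers, and 0.737 ± 0.103 in wild-type LPS livers and 0.931 ± 0.0446 in untreated wild-type livers (SD, n = 2), given as a description without a test.

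**Figure D3:**
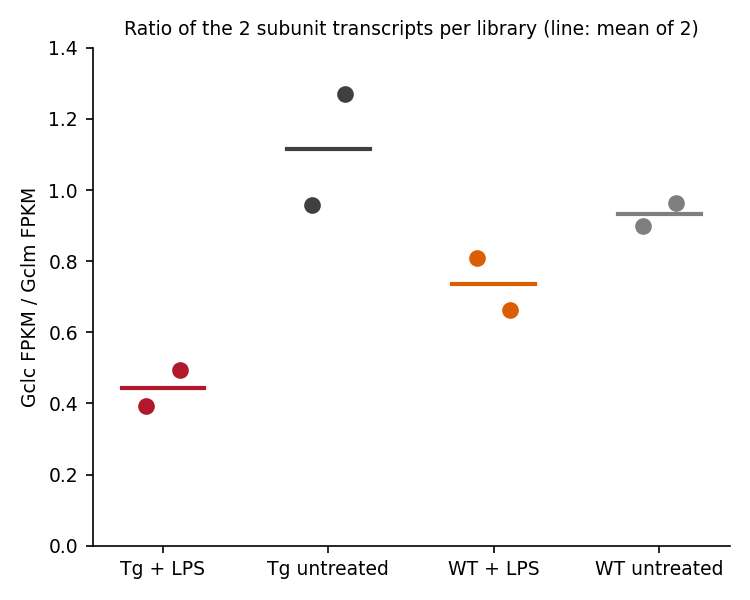
Ratio of Gclc to Gclm FPKM per library (y axis, from 0) by group (x axis), with a line for the mean of 2 libraries. The transgenic LPS libraries lie at 0.394 and 0.493, and the 4 untreated libraries between 0.900 and 1.27.

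The third question was whether the transgene altered these genes. With LPS, 0 of the 9 differed between transgenic and wild-type livers in limma, as did 0% of all features, while 2 members and 1402 of all features had an unadjusted p under 0.05. The 2 were Gclc, at 13.1 and 23.2 FPKM in transgenic LPS livers against 40.8 and 36.1 FPKM in wild-type LPS livers, and Gss, at 19.7 and 17.9 FPKM in the transgenic against 31.0 and 29.9 FPKM in the wild-type LPS livers. Neither pair of groups overlapped, which is a description only, since the 2 genes were picked by their unadjusted p in this same comparison. The log2 difference was -1.09 for Gclc (SE 0.26, adjusted p = 0.287) and -0.67 for Gss (SE 0.21, adjusted p = 0.351), and Gclm differed by -0.39 (adjusted p = 0.503). Without transgenic LPS replicate 2, the library with the higher Gclc value, Gclc differed by -1.48 and passed (adjusted p = 0.0189), in a refit that called 423 of all features. Without transgenic LPS replicate 1 it differed by -0.70 (adjusted p = 0.63). Over all features tested, the SD of the log2 difference between replicates was 0.467 in transgenic LPS and 0.233 in wild-type LPS livers. The model uses a shared spread, so leaving out a transgenic LPS library also changes that estimate. The other 6 genes differed by -0.24 (Txnrd1) to 0.07 (Gsr).

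In untreated livers 0 of the 9 passed in limma, 0 had an unadjusted p under 0.05, and 0.0611% of all features passed, with 631 at an unadjusted p under 0.05. Gclc was at 73.1 and 82.1 FPKM in untreated transgenic livers, against 63.7 and 48.8 FPKM in untreated wild-type livers. Its transgenic libraries were both above the wild-type ones, yet the difference of 0.47 (SE 0.26) had an adjusted p = 0.991. Gclm differed by 0.22 (adjusted p = 1), and the other 7 by -0.10 (Nqo1) to 0.14 (Keap1). Averaged over treatments, 0 of the 9 and 0.14% of all features passed in limma, with 1 member, Gss (-0.38), and 744 features at an unadjusted p under 0.05. Gclc differed by -0.31 in that average (adjusted p = 0.82), and the other 8 by -0.38 (Gss) to 0.02 (Srxn1).

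The interaction, the LPS change in transgenic minus that in wild-type mice, asked whether the LPS changes themselves differed. It passed for 0 of the 9 in limma and for 0.00872% of all features, with 1 member and 1189 features at an unadjusted p under 0.05. That member was Gclc, at -1.56 (SE 0.37, unadjusted p = 0.00344, adjusted p = 0.379). Gclm and Gss stood at -0.62 (adjusted p = 0.538) and -0.59 (adjusted p = 0.532), and the other 6 between -0.30 (Keap1) and 0.14 (Gsr). Without transgenic LPS replicate 2 the Gclc interaction was -1.95 and passed (adjusted p = 0.0218), without transgenic LPS replicate 1 it was -1.17 (adjusted p = 0.494), and in the other 6 refits it did not pass. With all 8 libraries the LPS change of Gclc in transgenic liver was thus not resolved from that in wild-type liver.

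**Figure D4:**
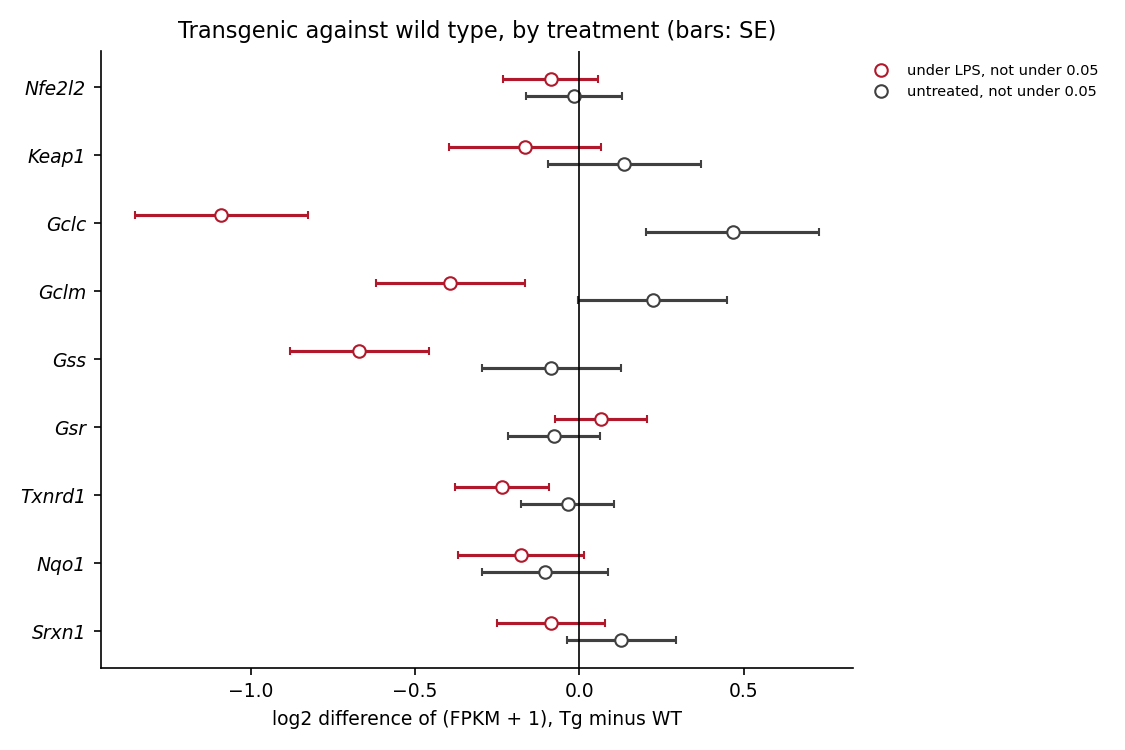
Difference between genotypes for each gene (x axis, log2 of FPKM + 1, transgenic minus wild type) with LPS (upper points) and untreated (lower points), with bars for the SE. All points are open, since none had an adjusted p under 0.05, and Gclc lies at -1.09 with LPS and 0.47 untreated.

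The genes around the set were read from 6 lists, in the averaged LPS comparison, in which 20.6% of all features rose and 15.8% fell. Of 10 regulators and partners of NRF2 tested, 0 rose and 2 fell, with a median of -0.14. Sqstm1, an autophagy receptor that binds KEAP1, changed by -0.65 (SE 0.15, adjusted p = 0.0125), and Btrc, a ubiquitin ligase adaptor that recognizes phosphorylated NRF2, by -0.29 (SE 0.09, adjusted p = 0.0391). The Sqstm1 call ended without wild-type LPS replicate 1 or untreated transgenic replicate 1, without both untreated libraries numbered 1, and with quantile normalization (adjusted p up to 0.0783). The Btrc call ended without untreated wild-type replicate 2, either wild-type LPS library, either untreated transgenic library or transgenic LPS replicate 1, without both untreated libraries numbered 1, and with no filter (adjusted p up to 0.128). With all calls of the list recounted, 0 fell without wild-type LPS replicate 1 or untreated transgenic replicate 1.

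Of 22 other NRF2 target genes tested, 5 rose and 9 fell, with a median of -0.70 beside -0.06 over all features. The number of rises is near the share among all features. Only through LPS libraries did 2 of these genes, and 1 gene each of the cysteine, glutathione use and superoxide lists, reach the filter. Of the genes that reached it in untreated libraries, 3 of 20 other targets and 1 of 11 cysteine genes rose. So did 4 of 22 glutathione use genes and 4 of 8 superoxide and peroxide enzymes. The falls stayed at 9, 2, 10 and 2. The shares over all features were not corrected in this way. Hmox1, heme oxygenase, averaged 174.9 ± 21.0 FPKM in transgenic LPS livers and 16.1 ± 1.96 FPKM in untreated transgenic livers, and 186.4 ± 28.7 FPKM in wild-type LPS livers and 23.0 ± 15.7 FPKM in untreated wild-type livers (SD, n = 2), a change of 3.25 (SE 0.29, adjusted p = 0.000116). G6pdx, the NADPH-producing entry enzyme of the pentose phosphate pathway, rose by 1.59 (SE 0.11). Gstp1, a glutathione transferase that has a near-identical neighbour and whose reads may be shared with it, changed by -1.51 (SE 0.21), and Aox1, an aldehyde oxidase, by -1.48 (SE 0.16). These 4 passed under every alternative run. Hmox1 is also expressed by macrophages, whose markers rose in the same libraries, and their part in the rise was not tested.

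Among 12 genes of cysteine supply and use 2 rose and 2 fell, with a median of -0.16. Both counts are near the shares over all features, 20.6% that rose and 15.8% that fell, and are not read as a result. The 2 that fell lie on the path from cysteine to taurine, which uses cysteine and does not supply it. Csad, which leads from cysteine toward taurine, changed by -1.15 (SE 0.12, adjusted p = 0.000302) and Cdo1, cysteine dioxygenase, by -0.44 (SE 0.15, adjusted p = 0.0498). Slc1a4, a neutral amino acid transporter below 2 FPKM in every library, reached the filter only through LPS libraries. Its change of 0.62 is therefore not read as a result. The row shared by Mtr (methionine synthase) and Gm10336 rose by 0.59. Both Slc1a4 and this row lost their calls with quantile normalization (0.16 and 0.37). Cdo1 passed in only 3 of 15 alternatives, and its call ended without untreated wild-type replicate 2, either wild-type LPS library, either untreated transgenic library or transgenic LPS replicate 1 (adjusted p up to 0.186).

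Of 23 genes that use, break down or repair with glutathione, 5 rose and 10 fell, with a median of -0.38. Gpx3, the secreted glutathione peroxidase, averaged 44.5 ± 9.38 FPKM in transgenic LPS livers and 9.67 ± 0.285 FPKM in untreated transgenic livers, and 23.3 ± 4.43 FPKM in wild-type LPS livers and 12.3 ± 0.0772 FPKM in untreated wild-type livers (SD, n = 2), a change of 1.47 (SE 0.14, adjusted p = 0.000133). Gpx7, a peroxidase of the endoplasmic reticulum, reached the filter only through LPS libraries, which favours a rise. Its change of 1.11 (SE 0.12) is therefore not read as a result. Mgst1, the abundant microsomal glutathione transferase, and Glo1, glyoxalase, changed by -0.94 (SE 0.21, adjusted p = 0.0104) and -0.89 (SE 0.19, adjusted p = 0.00828), and neither passed without both untreated libraries numbered 1 (adjusted p = 0.0624 and 0.0643). The count of rises was 2 with quantile normalization, 1 when the filter was 5 FPKM, and 3 without wild-type LPS replicate 1, untreated transgenic replicate 2 or transgenic LPS replicate 1. The count of falls was 4 to 5 without either wild-type LPS library, without either untreated transgenic library, with no filter, or without both untreated libraries numbered 1.

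Of 17 thioredoxin and peroxiredoxin genes 2 rose and 6 fell, with a median of -0.17. Prdx1, an abundant peroxiredoxin, and Txnl1, a thioredoxin-like protein, changed by -0.89 (SE 0.19, adjusted p = 0.00783) and -0.78 (SE 0.17, adjusted p = 0.00908). The count of falls was 3 without wild-type LPS replicate 2, without untreated transgenic replicate 2, or with quantile normalization. The sestrin genes Sesn1 and Sesn2 rose by 1.20 (SE 0.23, adjusted p = 0.00505) and 0.74 (SE 0.25, adjusted p = 0.049). Sesn1 was at 55.35 and 24.94 FPKM in transgenic LPS livers, against 9.71 and 8.48 FPKM in untreated transgenic livers. In wild type Sesn1 was at 13.55 and 13.39 FPKM with LPS, against 8.54 and 10.25 FPKM untreated. Sesn2 was at 24.9 and 10.2 FPKM in transgenic LPS livers and 6.98 and 6.22 FPKM in wild-type LPS livers, against 5.57 and 4.25 FPKM in untreated transgenic livers and 7.28 and 6.40 FPKM in untreated wild-type livers. The interaction was not called (1.58, SE 0.49, adjusted p = 0.418). The averaged call ended without any one library of wild-type LPS, untreated transgenic or untreated wild-type livers (adjusted p up to 0.139), without both untreated libraries numbered 1, with quantile normalization, and with either other filter (none or 5 FPKM).

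Of 9 superoxide and peroxide enzymes 5 rose and 2 fell, with a median of 1.78. Cybb, Ncf1 and Ncf4, which encode parts of the NADPH oxidase of phagocytes, rose by 2.61 (SE 0.11), 2.56 (SE 0.20) and 2.16 (SE 0.19), and Sod3, extracellular superoxide dismutase, by 2.13 (SE 0.23). Summed over the list the level was lower with LPS, at 716.8 to 1349 FPKM against 1653 to 1725 FPKM untreated, and the 2 that fell, Cat (catalase) and Sod1 (cytosolic superoxide dismutase), which are named here after their values were seen, hold most of that sum. Their count was 0 without either wild-type LPS library, without untreated transgenic replicate 2, or without both untreated libraries numbered 1, and 1 without untreated wild-type replicate 1, untreated transgenic replicate 1 or transgenic LPS replicate 1. The summed macrophage and neutrophil markers given above were higher in the same libraries as the oxidase genes, and their part was not tested.

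**Figure D5:**
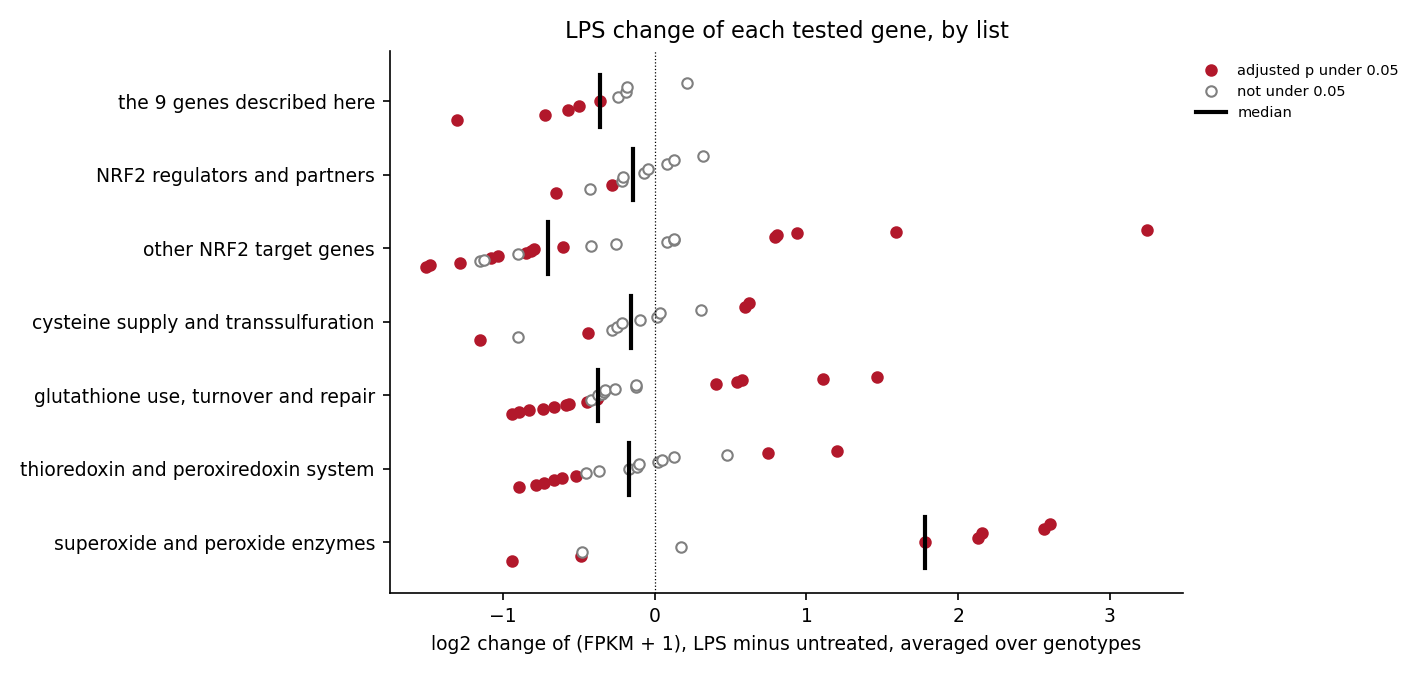
Change with LPS averaged over genotypes (x axis, log2 of FPKM + 1, LPS minus untreated) of each tested gene, by list (y axis), with filled points for adjusted p under 0.05 and a bar for the median. The medians lie at -0.36 for the 9 genes, -0.70 for other NRF2 targets and 1.78 for superoxide and peroxide enzymes.

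The 9 genes varied in their likeness to each other over the 8 libraries. As a description, the root mean square difference of the centred log2 values was smallest between Gsr and Txnrd1 (0.143) and largest between Nfe2l2 and Gclc (0.889). The features outside the set nearest to Gclc were Fabp1 (0.192), Aox1 (0.203), Pdzk1 (0.205), Cpox (0.210) and Tuba4a (0.217). Fabp1, which binds fatty acids in hepatocytes, was at 875.1 and 1890 FPKM in transgenic LPS livers, against 7508 and 6559 FPKM in untreated transgenic livers, and at 3272 and 2975 FPKM in wild-type LPS livers, against 5180 and 3378 FPKM in untreated wild-type livers. Aox1 was at 3.33 and 6.23 FPKM in transgenic LPS livers, against 22.2 and 22.1 FPKM in untreated transgenic livers, and at 9.74 and 11.3 FPKM in wild-type LPS livers, against 21.4 and 20.1 FPKM in untreated wild-type livers. As with Gclc, the lowest library of Fabp1 and Aox1 was transgenic LPS replicate 1. Since features were picked for likeness to Gclc over these same libraries, this is no separate observation.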

How the data were processed

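Stranded mRNA libraries were made from whole liver with an Illumina kit, per the labels' protocols. The authors deposited FPKM values, 1 column per library. TopHat2 2.1.0, Bowtie2 2.2.6, Cufflinks, Cuffdiff 2.2.1 and the build mm10 are named, without a role, per the submitters' processing notes. The annotation, trimming and between-library scaling are not stated there. The depth is unknown, since FPKM gives no counts: of low values (under 0.03 FPKM), 11.4% to 63.3% per library lay in 1 window of 0.1 (log2) when set against 1 library, too few to recover reads.

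For repeated names the row of highest sum was kept, rows of identical values were joined, and 27 rows with dates for names stayed unnamed. The 11463 features that reached 1 FPKM in 2 or more libraries were tested as log2(FPKM + 1), which understates changes of low genes, in limma 3.58.1 (R 4.3.3). The model had 1 mean per group, 4 residual degrees of freedom and trended moderation, and gave 7 contrasts, 2-sided, with Benjamini-Hochberg adjustment over all features at 0.05. It was tried on simulated data drawn independently, with the same spread per gene in all groups, which does not test unequal spread between groups. Libraries of a group are biological replicates per the labels, which give no batch. The choices varied were the pseudocount (0.1), the filter (none or 5 FPKM), quantile normalization, median centring, fitting only the groups compared, a replicate block, and each library left out. Leaving out both untreated libraries numbered 1, the higher of each pair in pancreas markers, was added after the data were seen. Members, 6 context lists and 9 cell marker lists were chosen with earlier results of these data known. The text names the 9 members, up to 4 genes of each context list (those called in the averaged LPS comparison with the largest change) and the 5 features nearest to Gclc. Emr1 stood for the macrophage marker Adgre1 and Igj for the plasma cell marker Jchain.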

Additional observations from a re-analysis of the deposited data

How the results depend on the processing

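With 2 libraries per group, the calls of Gclm, Txnrd1, Nqo1 and Srxn1 in a single genotype rest on few libraries, and the cause of each lost call was not tested. Of the 9 genes, the number called in wild type, 1, was 0 with no filter, a filter of 5 FPKM, only the groups compared, or both untreated libraries numbered 1 left out. In transgenic mice, 5 became 3 with quantile normalization or only the groups compared and 1 with both untreated libraries numbered 1 left out, and in the average 5 became 3 with that same pair left out. Over all features, a filter of 5 FPKM, which tests fewer genes, gave 1379, 1835 and 2698 calls for LPS in wild type, in transgenic mice and averaged, and leaving out both untreated libraries numbered 1 gave 1669 in transgenic mice. For the transgene in untreated livers, calls over all features numbered 0 with no filter or both untreated libraries numbered 1 left out, and 29 with only the groups compared. For the transgene under LPS they numbered 1 with no filter or quantile normalization, and for the transgene averaged 0 with no filter or both untreated libraries numbered 1 left out. For the interaction they numbered 0 with no filter, quantile normalization or both untreated libraries numbered 1 left out. Signs turned with quantile normalization for Keap1 in wild type (0.01) and Gsr in transgenic mice (0.037), and with both untreated libraries numbered 1 left out for Keap1 (0.33) and Gclm (0.044) in wild type and for Keap1 (0.033) and Gss (0.03) in the average. Without 1 library at a time, the members called ranged from 0 to 1 in wild type, 1 to 6 in transgenic mice, 3 to 6 in the average, 0 to 1 for the transgene under LPS and 0 to 1 for the interaction. Over all features the calls ranged from 1219 to 3453, 1233 to 3641 and 2645 to 4785 for LPS in wild type, in transgenic mice and averaged, from 2 to 44 for the transgene in untreated livers, 0 to 423 under LPS, 0 to 180 averaged, and 0 to 276 for the interaction. In wild type Keap1 then ranged from -0.41 to 0.33, Gclm from -0.43 to 0.044 and Gss from -0.19 to 0.40, and the Gclm difference between untreated genotypes from -0.012 to 0.46. Gclc in transgenic mice and Gclc, Nqo1 and Srxn1 in the average passed under each alternative run. Of 27 genotype values of other members given as ranges, 0 were called under any alternative and 16 changed sign under at least 1. Quantile normalization put the median of all features at -0.12 in wild type and -0.11 in the average, and the share of calls that were higher at 59.5% and 44.8%, beside 75% and 56.6% without it. The replicate numbers share no stated litter or day, and replicate differences of pairs of groups correlated at 0.043 to 0.459 over features. With a replicate block, 1, 5 and 4 members were called for LPS in wild type, in transgenic mice and averaged (Gclm missed the threshold, adjusted p = 0.053), of 2769, 3314 and 4538 features, with 1 feature for the transgene averaged and 2 for the interaction.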
